A study of Homo sapiens with 15 samples.

Results

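The cluster of miR-221 and miR-222 gives rise to 4 mature miRNAs, hsa-miR-221-3p, hsa-miR-221-5p, hsa-miR-222-3p and hsa-miR-222-5p, and all 4 were measured among the 1707 mature miRNAs listed in each library. The members were taken by name, as both arms of both hairpins. Small RNA was sequenced from U87-MG, a human glioblastoma line in long use, as 5 groups of 3 libraries. Control cells (WT genotype) were cultured for 24 h at 21% O2 (normoxia) or 1% O2 (hypoxia). Cells lacking Hif1a (HIF1α-KO), cells lacking Hif2a (HIF2α-KO) and cells lacking both (HIF1α/HIF2α-KO) were cultured for 24 h at 1% O2 only. The knockouts were made with the CRISPR/Cas9 system from lentiviral vectors, and whether a knockout line was 1 clone is not given in the sources used here. No knockout line was cultured in normoxia, so every contrast of a knockout with normoxic control cells changes genotype and oxygen together.

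A miRNA hairpin is cut into a short duplex, and usually 1 strand of it (the guide, from the 5p or the 3p arm) is loaded into an Argonaute protein while the other is discarded. The loaded miRNA finds its target mRNAs mainly through its seed, bases 2 to 8, and lowers their translation and stability. The 3p strands of miR-221 and miR-222 are the usual guides of these hairpins. They are known as growth-promoting miRNAs that are abundant in glioblastoma and several other tumours, with the cell cycle inhibitor p27 (CDKN1B) as the classical target, and they are also plentiful in endothelial cells and fibroblasts. The hypoxia-inducible factors HIF1α and HIF2α are transcription factors that accumulate when oxygen is low, and miR-210 is their best known miRNA target.

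The mature sequences were taken from RefSeq (GRCh38.p14), where 3 of the 4 members had an entry, and are shown because the shared seed places both 3p strands in 1 family. They are written 5′ to 3′ with the seed in capitals.
hsa-miR-221-3p: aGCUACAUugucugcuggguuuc
hsa-miR-222-3p: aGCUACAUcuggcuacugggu
hsa-miR-222-5p: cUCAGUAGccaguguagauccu
The 3p strands have the same first 8 bases and differ further on, with 11 of 21 aligned positions identical. Among the 2370 mature names of the RefSeq table, 2 carry the seed GCUACAU, and these are miR-221-3p and miR-222-3p. The 5p strand of miR-222 has the seed UCAGUAG, which was found in 1 name. A read therefore separates the 3p strands by its 3′ part, while their targets are chosen through the same seed.

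Both hairpins lie on the minus strand of chromosome X. The hairpin of miR-221 (MIR221) is chrX:45746157-45746266 and that of miR-222 (MIR222) is chrX:45747015-45747124, with 748 bases between them. The mature strands are chrX:45746180-45746202 for miR-221-3p, chrX:45747036-45747056 for miR-222-3p and chrX:45747073-45747094 for miR-222-5p. In the GENCODE release 29 annotation both hairpins are inside the intron chrX:45746101-45769785 of the MIR222HG transcript ENST00000602461.1, whose gene spans chrX:45745211-45770274. The hairpins are printed because the arm ratios below compare their sides, with the mature strands of the RefSeq table in capitals.
MIR221: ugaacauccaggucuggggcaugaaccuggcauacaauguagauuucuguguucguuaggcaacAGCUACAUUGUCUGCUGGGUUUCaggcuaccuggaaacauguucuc
MIR222: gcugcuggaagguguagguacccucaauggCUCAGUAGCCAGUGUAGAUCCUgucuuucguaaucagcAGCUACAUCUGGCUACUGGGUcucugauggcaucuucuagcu
As the order on the minus strand shows, a transcript that starts at the MIR222HG start reaches miR-222 before miR-221. The GENCODE start of MIR222HG, chrX:45770274, is 23150 bases from MIR222.

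The window around a start of MIR222HG is chrX:45770218-45770517 (250 bases before to 50 after, minus strand, GRCh38.p14). Its coordinates place this start a few bases from the GENCODE one used for the distance above. The window is shown because the knockouts removed transcription factors that bind DNA at the core letters ACGTG or GCGTG.
MIR222HG: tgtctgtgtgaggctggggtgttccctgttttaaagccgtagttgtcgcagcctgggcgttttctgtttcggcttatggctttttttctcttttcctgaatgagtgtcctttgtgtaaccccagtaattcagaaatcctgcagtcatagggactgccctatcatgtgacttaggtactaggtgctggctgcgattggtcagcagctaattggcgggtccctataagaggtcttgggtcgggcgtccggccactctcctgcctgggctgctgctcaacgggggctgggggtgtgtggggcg
A search for ACGTG and GCGTG on both strands found 0 matches in this window and 2 in the window of the same length at MIR210HG, the host gene of miR-210. Of 35116 promoter windows of this length, 48.4% held at least 1 match, so either outcome was common. No match says only that these letters are absent from these 300 bases.

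Total counts per library ranged from 10360337 to 22496373, and the smallest amount taken as detectable, 3 counts, was at most 0.290 CPM, the count scaled to a common library size. Levels below are CPM after TMM scaling, which corrects each library for its composition, and a level over all cells of a culture cannot tell fewer cells with a miRNA from less of it per cell. Of the 1707 miRNAs, 562 had enough counts for the tests, and all 4 members were among them. The markers of glioblastoma cells summed to 168310 to 258423 CPM in the libraries, and the endothelial markers, both arms of miR-126, to 3.90 to 51.9 CPM. By miR-126 the libraries fall into a set of 9 with more (14.5 to 51.9 CPM) and a set of 6 with less (3.90 to 6.95 CPM). All 3 normoxic control libraries are in the set with more, along with 2 of the HIF1α/HIF2α-KO, 2 of the HIF2α-KO, 1 of the hypoxic control and 1 of the HIF1α-KO libraries. The summed markers of mural cells and fibroblasts ranged from 136 to 585 CPM, those of blood from 4.41 to 23.3, of neurons from 3598 to 10161, of epithelium from 39.4 to 121 and of muscle from 1.60 to 47.2, and no marker measured was at 0 in all libraries. Their part in the values of the members was not tested.

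The 3p strands were among the most abundant miRNAs of these cells. miR-221-3p ranked 8th to 11th in every library, with 15847 to 26395 CPM and a median of 22303 CPM. miR-222-3p followed at ranks 11 to 15, with 11064 to 22048 CPM and a median of 15762 CPM. The passenger strand miR-221-5p ranked 41st to 54th, at 637 to 1344 CPM. miR-222-5p was the scarcest, at 5.21 to 14.8 CPM, ranks down to 282 and 58 to 229 counts per library, so its values carry the largest counting error of the 4. Together the members took 4.08% ± 0.24 (SD, n = 3) of all counts in normoxic control cells and 3.69% ± 0.13 in hypoxic control cells. The share was 4.11% ± 0.23 in HIF1α-KO, 4.11% ± 0.62 in HIF2α-KO and 3.44% ± 0.61 in HIF1α/HIF2α-KO cells.

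Over the libraries the 3p strands varied less than most miRNAs tested, and miR-222-5p about as much as the median one. Between the lowest and the highest of the 15 libraries the fold range was 1.67 for miR-221-3p, 1.99 for miR-222-3p, 2.11 for miR-221-5p and 2.83 for miR-222-5p, against 13.7 for miR-210-3p. The SD of log2 CPM over the libraries was 0.18, 0.26, 0.27 and 0.35 in the same order, with a median of 0.40 over all miRNAs tested and 1.24 for miR-210-3p. Of the 562 miRNAs, 7.12% had an SD as low as that of miR-221-3p or lower, 20.1% as low as that of miR-222-3p or lower, 23.1% for miR-221-5p and 41.5% for miR-222-5p. The miRNAs were not matched for abundance, and scarce ones carry more counting error, so the part of abundance in these shares was not tested.

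Lower oxygen was compared in control cells. miR-222-3p was lower in hypoxia in each library, and the other members overlapped. In normoxia miR-222-3p was at 19230, 18418 and 17607 CPM (18418 ± 811, SD, n = 3), and in hypoxia at 14383, 13864 and 14061 CPM (14102 ± 262). The lowest normoxic library was above the highest hypoxic one, a separation that 17.8% of all miRNAs tested showed in this comparison. The log2 fold change was -0.39 (standard error 0.14, 95% confidence interval -0.69 to -0.08), with an unadjusted p of 0.0168 and an adjusted p of 0.701 in the quasi-likelihood test of edgeR over all 562 miRNAs. An exact permutation test, two-sided, returned p = 0.1, and no smaller value can arise with 3 libraries in each group. All 3 normoxic libraries have more miR-126, and the 1 hypoxic control library of that set had 14383 CPM of miR-222-3p. That it was below all 3 follows from the separation of the groups and cannot check the part of miR-126. No miRNA passed an adjusted p of 0.05 in this comparison (background 0.0%), where 35 had an unadjusted p under 0.05. The Wald test of DESeq2 also called 0, and edgeR without a filter on low counts called 15 of 1707, none of them a member.

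miR-221-3p was at 22655, 23190 and 21135 CPM in normoxia and at 22303, 20599 and 21581 CPM in hypoxia. These ranges overlap, and the log2 fold change of -0.05 has a 95% confidence interval from -0.30 to 0.20 (adjusted p = 0.885 in edgeR). For miR-221-5p, normoxia gave 926, 745 and 1068 CPM and hypoxia 878, 866 and 885 CPM (log2 fold change -0.06, interval -0.50 to 0.38). For miR-222-5p, the values were 10.2, 8.79 and 14.8 CPM in normoxia and 13.3, 7.56 and 8.30 CPM in hypoxia (log2 fold change -0.22, interval -0.82 to 0.39). The interval of miR-221-3p leaves room for changes of up to 0.30 on the log2 scale, and those of the 5p strands are wider. miR-210-3p did not separate these groups either (log2 fold change -0.19, adjusted p = 0.841 in edgeR), with 1018 to 1308 CPM in normoxia and 935 to 1152 CPM in hypoxia.

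Loss of HIF1α was compared with control cells under hypoxia, where both arms of miR-210 were lower (miR-210-3p log2 fold change -1.76, adjusted p = 0.0126 in edgeR; its adjusted p was 0.107 without HIF1α-KO replicate 1, 0.102 without replicate 2, 0.0645 without hypoxic control replicate 1 and 0.155 when only the libraries compared were fitted). None of the 4 members passed this threshold, and 1.25% of all miRNAs tested did. HIF1α-KO cells had 15762, 15840 and 16701 CPM of miR-222-3p, all above the 3 hypoxic control libraries. The log2 fold change was 0.19 (standard error 0.14, interval -0.11 to 0.49, adjusted p = 0.668 in edgeR), and 21.5% of the miRNAs tested had groups that did not overlap here. By set, miR-222-3p was at 16701 against 14383 CPM with more miR-126, and at 15762 and 15840 against 13864 and 14061 CPM with less. Groups that do not overlap stay apart in any split, so these values cannot check the part of miR-126. miR-221-3p was at 22992, 21869 and 22134 CPM in HIF1α-KO cells (log2 fold change 0.06, interval -0.19 to 0.31) and overlapped with control cells.

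In HIF1α-KO cells miR-221-5p was at 1215, 1080 and 637 CPM and miR-222-5p at 8.80, 9.53 and 5.21 CPM. The third replicate had the lowest level of both 5p strands among all 15 libraries, and its 3p strands were not low. The log2 fold changes from hypoxic control cells were 0.16 (interval -0.29 to 0.60) for miR-221-5p and -0.30 (interval -0.90 to 0.31) for miR-222-5p. Without that replicate the value of miR-221-5p was 0.39, with an adjusted p of 0.388 in edgeR. Against normoxic control cells, HIF1α-KO cells had less miR-222-3p in every library. The difference was -0.19 on the log2 scale (adjusted p = 0.521 in edgeR), where 26.7% of miRNAs did not overlap and 2.31% passed the threshold. With library totals as the only scaling these groups overlapped and the difference was -0.10, and with quantile normalization and limma it was -0.067.

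Loss of HIF2α went with higher means of both 3p strands, and of miR-221-5p, than in hypoxic control cells, without a call. miR-221-3p was at 26395, 25628 and 23324 CPM in HIF2α-KO cells, each above every hypoxic control library (log2 fold change 0.22, standard error 0.12, interval -0.03 to 0.47, adjusted p = 0.400 in edgeR). miR-221-5p was at 955, 1344 and 1108 CPM, also above every hypoxic control library (log2 fold change 0.37, interval -0.07 to 0.82, adjusted p = 0.434 in edgeR). Separation of the groups was seen for 16.4% of the miRNAs tested, and 0.0% passed the adjusted threshold (86 had an unadjusted p under 0.05, DESeq2 called 0, and edgeR without a filter called 11 of 1707, none of them a member). The separation of miR-221-3p rests on the scaling: with library totals only, HIF2α-KO cells had 20948 to 25052 CPM and hypoxic control cells 21187 to 22791 CPM, and the log2 fold change was 0.088, while the median over all miRNAs went from -0.01 to -0.15. That of miR-221-5p was also seen with library totals, with a log2 fold change of 0.23. The 3 replicates disagreed on miR-222-3p, with 22048, 18862 and 13970 CPM, the third being inside the range of the hypoxic control cells. The fitted difference from them was 0.38 on the log2 scale (standard error 0.14, interval 0.07 to 0.68, unadjusted p = 0.0192, adjusted p = 0.263 in edgeR). Without the first replicate this was 0.21, and without the third 0.48. miR-222-5p was at 10.9, 8.28 and 11.2 CPM and overlapped (log2 fold change 0.07, interval -0.54 to 0.67).

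Against normoxic control cells, the HIF2α-KO libraries were again all higher in miR-221-3p (log2 fold change 0.17, interval -0.08 to 0.42, adjusted p = 0.523 in edgeR), where 18.5% of miRNAs did not overlap and 0.0% passed (85 had an unadjusted p under 0.05, DESeq2 called 0, and edgeR without a filter called 13 of 1707). With library totals only the groups overlapped, and the other settings gave log2 fold changes down to 0.052. These cells and normoxic control cells had nearly the same mean of miR-222-3p (18293 ± 4069 and 18418 ± 811 CPM; log2 fold change -0.01, interval -0.31 to 0.29), and the spread was wider in the knockout cells.

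Simultaneous knockout of HIF1α and HIF2α gave the lowest means of both 3p strands among the 5 groups. miR-221-3p was at 15847, 22606 and 17805 CPM (18752 ± 3478, SD, n = 3) and miR-222-3p at 12765, 14491 and 11064 CPM (12774 ± 1714). The second replicate was above the hypoxic control range for both strands, and the other 2 were below it. The log2 fold changes from hypoxic control cells were -0.20 for miR-221-3p (interval -0.45 to 0.05, adjusted p = 0.347 in edgeR) and -0.14 for miR-222-3p (interval -0.45 to 0.16, adjusted p = 0.619 in edgeR). Leaving out 1 library at a time moved them from -0.32 to -0.079 and from -0.21 to -0.024, with the value nearest 0 without knockout replicate 1 for miR-221-3p and replicate 3 for miR-222-3p, and the value farthest from 0 without replicate 2 for both. miR-221-5p went the other way, with 972, 1073 and 910 CPM, each above every hypoxic control library (log2 fold change 0.17, interval -0.28 to 0.61). Groups that did not overlap made up 30.4% of the miRNAs tested here, and 5.87% passed the adjusted threshold, none of them a member of the cluster. miR-222-5p was at 9.82, 9.70 and 7.95 CPM, inside the hypoxic control range (log2 fold change -0.08, interval -0.68 to 0.53).

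The 1 call among the 40 pairwise member tests was miR-222-3p between HIF1α/HIF2α-KO cells under hypoxia and normoxic control cells. It was lower in the knockout cells, with no overlap (11064 to 14491 against 17607 to 19230 CPM), a log2 fold change of -0.53, a standard error of 0.14, an interval from -0.83 to -0.22 and an adjusted p of 0.0409 in edgeR. In this comparison 6.41% of all miRNAs tested passed and 39.0% did not overlap, so a separation here was common. The summed endothelial markers also separated these groups (6.95 to 17.03 CPM in the knockout against 17.8 to 37.0 CPM in normoxic control cells). The summed muscle markers did so as well (20.9 to 47.2 against 1.60 to 7.13 CPM). The part of the muscle markers in the result was not tested, and miR-126 entered only through its sets, as given below. Among the libraries with more miR-126 the values were 12765 and 14491 CPM against the same 3 normoxic libraries. The call was lost with library totals as the only scaling (-0.42, adjusted p = 0.116 in edgeR), with quantile normalization and limma (-0.37, adjusted p = 0.260), with no filter on low counts (-0.46, adjusted p = 0.0825 in edgeR) and with the miR-126 sets as a covariate (-0.50, adjusted p = 0.0588 in edgeR). It was also lost when normoxic replicate 1, 2 or 3 or knockout replicate 1 or 3 was left out (log2 fold changes -0.54 to -0.41, adjusted p from 0.107 to 0.199 in edgeR), and kept without knockout replicate 2 (-0.61, adjusted p = 0.0385 in edgeR). In the same comparison miR-221-3p stood at -0.25 on the log2 scale (interval -0.50 to -0.0017, adjusted p = 0.190 in edgeR), and at -0.39 (adjusted p = 0.0345 in edgeR) without knockout replicate 2.

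**Figure D1:**
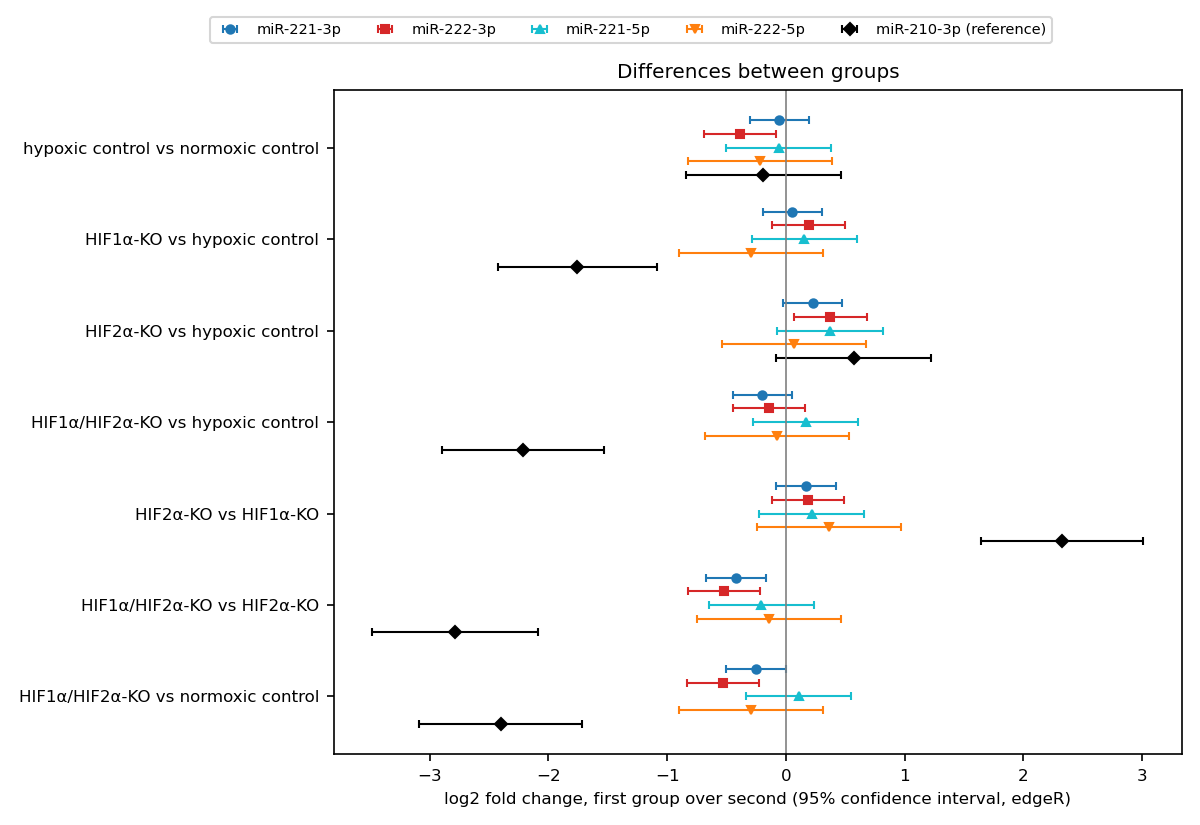
Log2 fold change (horizontal axis, edgeR, first group over second; bars are 95% confidence intervals) of the 4 members and of miR-210-3p as a reference in 7 comparisons. The members lie between -0.53 and 0.38, and miR-210-3p reaches -2.79.

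The knockouts were also compared with each other under hypoxia. Both 3p strands were lower in HIF1α/HIF2α-KO than in HIF2α-KO cells, by log2 fold changes of -0.42 for miR-221-3p (standard error 0.12, interval -0.67 to -0.17) and -0.52 for miR-222-3p (standard error 0.14, interval -0.82 to -0.21). The adjusted p was 0.0790 for each in edgeR, short of the threshold that 1.78% of miRNAs passed, and the 9 other settings gave 0.0778 to 0.435 for miR-221-3p and 0.0647 to 0.327 for miR-222-3p. With library totals only the log2 fold changes were -0.22 and -0.32. The libraries of miR-221-3p did not overlap, as for 20.5% of miRNAs, but did with library totals (16376 to 24554 against 20948 to 25052 CPM), and those of miR-222-3p did, since the third HIF2α-KO replicate (13970 CPM) was below the second HIF1α/HIF2α-KO replicate (14491 CPM). Without HIF1α/HIF2α-KO replicate 2 the call for miR-221-3p was made (-0.53, adjusted p = 0.0218 in edgeR), and without HIF2α-KO replicate 3 that for miR-222-3p (-0.63, adjusted p = 0.0280 in edgeR). The 5p strands overlapped, with log2 fold changes of -0.21 and -0.14.

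HIF2α-KO cells had more miR-221-3p than HIF1α-KO cells in every library (log2 fold change 0.17, interval -0.08 to 0.42, adjusted p = 0.457 in edgeR), where 20.5% of miRNAs did not overlap and 1.07% passed. With library totals as the only scaling this difference was -0.01, so its direction rests on the composition factor. HIF1α/HIF2α-KO cells had less miR-222-3p than HIF1α-KO cells in every library (log2 fold change -0.33, interval -0.64 to -0.03, adjusted p = 0.285 in edgeR), against a background of 21.4% that did not overlap and 1.42% that passed; with library totals the groups overlapped. In total 11 of the 40 pairwise member comparisons had groups that did not overlap, 5 for miR-222-3p, 4 for miR-221-3p, 2 for miR-221-5p and 0 for miR-222-5p, and these comparisons share libraries. This is 27.5% of them, near the 23.3% over all miRNAs in the same 10 comparisons. With library totals only, 5 of the 40 did not overlap, 3 for miR-222-3p, 2 for miR-221-5p and 0 for miR-221-3p. The share over all miRNAs was not determined with this scaling, so this count has no background beside it.

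Whether the effect of HIF1α loss depended on HIF2α was tested as an interaction, the change on HIF1α loss in HIF2α-KO cells minus that in control cells under hypoxia. It was -0.71 for miR-222-3p (standard error 0.20, interval -1.14 to -0.28, unadjusted p = 0.00332) and -0.48 for miR-221-3p (standard error 0.16, interval -0.83 to -0.12, unadjusted p = 0.0119). Neither passed after adjustment (adjusted p = 0.378 for each in edgeR), and 0.0% of miRNAs did, with 59 at an unadjusted p under 0.05, 0 called by DESeq2 and 5 of 1707 by edgeR without a filter, none of them a member. The 5p strands had interactions of -0.36 (interval -0.99 to 0.26) and 0.15 (interval -0.71 to 1.01). For both 3p strands the estimate kept its sign in each of the 9 other settings and the 12 fits that left out a library, from -0.72 to -0.32 and from -0.85 to -0.38 over both strands, with no adjusted p under 0.137.

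The mean of miR-221-3p was highest in HIF2α-KO cells, followed by HIF1α-KO, normoxic control, hypoxic control and last HIF1α/HIF2α-KO cells. That of miR-222-3p was highest in normoxic control cells, followed by HIF2α-KO, then HIF1α-KO, then hypoxic control and last HIF1α/HIF2α-KO cells. No 2 neighbours in either order passed the adjusted threshold (adjusted p from 0.347 to 0.999 in edgeR), and 2 pairs of neighbours did not overlap, HIF2α-KO above HIF1α-KO for miR-221-3p (not with library totals) and HIF1α-KO above hypoxic control for miR-222-3p. Among the groups under hypoxia both 3p strands had the same order with TMM scaling. With library totals the HIF1α-KO and HIF2α-KO means were 23288 and 23117 CPM for miR-221-3p. They were 16792 and 16886 CPM for miR-222-3p, so the orders differed.

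The arms were strongly unequal in both hairpins. In miR-221 the 3p strand had 16.3 to 34.8 times the counts of the 5p strand, with a mean of 22.7-fold on the log scale. In miR-222 it had 1076 to 3150 times as many, with a mean of 1665-fold. Among the 142 hairpins with both arms tested, miR-222 was the 3rd most 3p-biased and miR-221 the 25th, and 70 hairpins had more 3p than 5p counts. For 3 hairpins (miR-4755, miR-549a and miR-625) the counts of the arms were equal within 2 counts in every library, so the counting did not keep the arms of every hairpin apart.

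**Figure D2:**
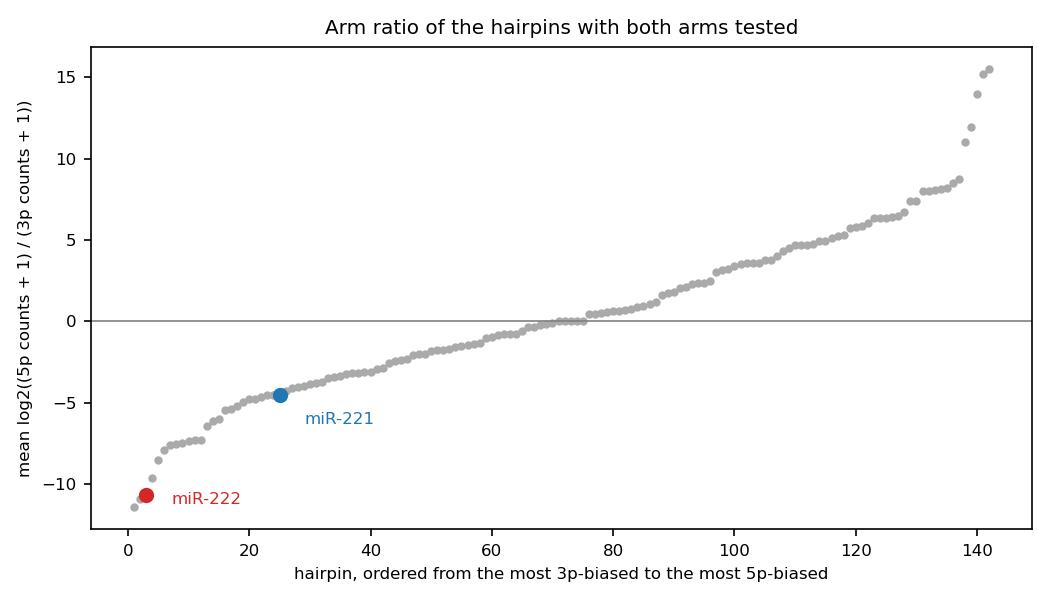
Mean over the 15 libraries of log2((5p counts + 1)/(3p counts + 1)) (vertical axis) for 142 hairpins in order (horizontal axis, from the most 3p-biased to the most 5p-biased). miR-222 is 3rd from the left, at -10.70, and miR-221 25th, at -4.51.

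The arm ratio was compared between groups as the log2 of 5p over 3p counts, which needs no scaling between libraries. No comparison gave a call for either hairpin in limma, where 0.0% of the 142 hairpins passed in 9 of the 10 pairwise comparisons and 2.11% between HIF1α/HIF2α-KO and normoxic control cells. The 3p to 5p ratio of miR-221 was 24.5, 31.1 and 19.8 in normoxic and 25.4, 23.8 and 24.4 in hypoxic control cells. These ranges overlap, and the log2 difference of 5p over 3p was 0.01 (interval -0.52 to 0.54). The interval leaves room for a change in either direction. The miR-222 ratio was 1878, 2077 and 1188 in normoxia and 1076, 1823 and 1680 in hypoxia (log2 difference 0.16, interval -0.54 to 0.86). In HIF1α/HIF2α-KO cells the miR-221 ratio was 16.3, 21.1 and 19.6, below every hypoxic control library. The log2 difference was 0.38 in favour of the 5p strand (interval -0.15 to 0.90, adjusted p = 0.451 in limma), and 21.1% of hairpins did not overlap in this comparison.

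The miR-222 ratio separated HIF1α/HIF2α-KO cells (1291, 1483 and 1377) from HIF1α-KO cells (1775, 1654 and 3150), with a log2 difference of 0.60 (interval -0.10 to 1.30, adjusted p = 0.335 in limma), as did 28.2% of hairpins. The highest 3p to 5p ratio of both hairpins was in HIF1α-KO replicate 3 (34.8 for miR-221 and 3150 for miR-222). In that library the median deviation of the log2 arm ratios of the other hairpins was 0.02. This median mixes hairpins biased to either arm, so it cannot show a shift that runs opposite ways in them. In HIF2α-KO cells the ratios were 27.6, 19.1 and 21.1 for miR-221 and 2012, 2253 and 1236 for miR-222, overlapping with the hypoxic control cells in both.

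The 3p strands of the hairpins were set against each other within each library, which also needs no scaling. Per read of miR-221-3p there were 0.849, 0.794 and 0.833 reads of miR-222-3p in normoxic control cells (0.825 ± 0.028, SD, n = 3) and 0.645, 0.673 and 0.652 in hypoxic control cells (0.656 ± 0.015). The groups did not overlap, with a log2 difference of -0.33 that was between -0.36 and -0.31 when any 1 of the 6 libraries was left out. This was 1 of 7 ratio comparisons without overlap among 40, and these comparisons share libraries. By two-sided exact permutation p was 0.1, again the smallest value possible, and 0.333 after adjustment over the 10 comparisons. Ratios of the other 561 miRNAs tested to miR-221-3p did not overlap between these groups in 15.9% of cases. The hypoxic control library with more miR-126 had the ratio 0.645. That it was below the 3 normoxic libraries of its set follows from the separation of the groups and cannot check the part of miR-126.

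HIF1α-KO cells had intermediate ratios of 0.686, 0.724 and 0.755 (0.721 ± 0.035), above all hypoxic and below all normoxic control libraries. The log2 differences were 0.14 and -0.19, each with an exact permutation p of 0.1, and the backgrounds of ratios that did not overlap were 21.2% and 24.1%. The ratio spread widely in the other knockouts, with 0.835, 0.736 and 0.599 in HIF2α-KO and 0.806, 0.641 and 0.621 in HIF1α/HIF2α-KO cells. Each of these groups reached from below the hypoxic control range into the normoxic one. The 5p strands gave 66.2 to 162 reads of miR-221-5p per read of miR-222-5p, and miR-222-5p was relatively lower in HIF1α-KO (log2 difference -0.59) and HIF1α/HIF2α-KO (-0.39) than in normoxic control cells without overlap (background 11.2% and 31.7%; exact permutation p = 0.1 for each, adjusted p = 0.400 over the 10 comparisons).

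Across the 15 libraries the log2 levels of the 3p strands went together (Pearson r = 0.76, Spearman rho = 0.67, and r = 0.66 without the 2 libraries farthest from the median of miR-221-3p). Within the 9 libraries with more miR-126 r was 0.66, within the 6 with less 0.98, and for deviations from the group means 0.58. The 5p strands had r = 0.44 with each other. For strands of 1 hairpin r was 0.20 for miR-221 and 0.14 for miR-222 over all libraries. Within the sets it was -0.08 (more miR-126) and 0.80 (less) for miR-221, and -0.04 and 0.44 for miR-222. These are descriptions, since the libraries share groups and scaling factors.

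The miRNAs whose log2 levels over the 15 libraries were most like each member were listed by Pearson r, as a description. For miR-221-3p they were miR-10395-5p (0.77), miR-320b (0.75) and miR-320a-3p (0.73), and for miR-222-3p miR-320a-3p (0.86), miR-320b (0.84) and miR-92b-5p (0.79). For miR-221-5p they were miR-664a-5p (0.74), let-7f-2-3p (0.73) and miR-7-5p (0.69). miR-222-5p was most like let-7a-2-3p (0.83), miR-138-1-3p (0.82) and let-7b-3p (0.82). The lists of the 3p strands share 2 names, and those of the 5p strands none.

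Other growth-associated miRNAs of glioma were described beside the cluster. Of 13 listed, 12 were tested, and their most abundant members were miR-21-5p (160457 to 257693 CPM), miR-26a-5p (19889 to 39186 CPM) and miR-10b-5p (2258 to 4029 CPM). In HIF1α/HIF2α-KO against hypoxic control cells 2 of the 12 rose and 1 fell, where 5.87% of all miRNAs tested passed. miR-30a-5p rose by 0.87 and miR-182-5p by 0.64 on the log2 scale (adjusted p = 0.00672 and 0.0394 in edgeR), and miR-196a-5p fell by 0.91 (adjusted p = 0.0214 in edgeR). The median log2 fold change of the list was 0.26, beside -0.02 over all miRNAs tested, while both 3p strands of the cluster were below 0. Against normoxic control cells miR-30a-5p (log2 fold change 0.74) and miR-20a-5p (0.82), an oncogenic member of the miR-17-92 cluster, were higher in HIF1α/HIF2α-KO cells. These were 2 of the 12, where 6.41% of all miRNAs tested passed. No other pairwise comparison gave a call in edgeR, with 0 to 6 of the 12 at an unadjusted p under 0.05. With loss of HIF2α the list's median was 0.45 (all miRNAs -0.01), and 6 of the 12 had an unadjusted p under 0.05, as did 86 of all 562.

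Of 19 other miRNAs encoded on the same chromosome arm but in other transcripts, 17 were tested, led by miR-532-5p (380 to 622 CPM), miR-98-5p (92.4 to 301.2 CPM) and miR-500a-3p (119 to 212 CPM). Between hypoxic and normoxic control cells their median log2 fold change was -0.03 (all miRNAs 0.01), and 0 passed. The 1 that passed in any comparison was miR-362-3p, higher in HIF1α/HIF2α-KO than in normoxic control cells (log2 fold change 2.16, adjusted p = 0.0245 in edgeR), at 0.163 to 2.21 CPM and so partly under the detectable amount. In that comparison 6.41% of all miRNAs tested passed, so 1 of the 17 is near the share over all. The median of the 17 was 0.45 (all miRNAs -0.01), and miR-222-3p was at -0.53.

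Of 13 miRNAs named as hypoxia-responsive, 12 were listed and 11 tested. The 2 arms of miR-210 were the ones that passed, in each comparison of cells with against cells without HIF1α. In these comparisons 1.07% to 6.41% of all miRNAs tested passed. The most abundant others, miR-26a-5p, miR-27a-3p (9298 to 13977 CPM) and miR-23b-3p (2450 to 3014 CPM), passed in none. Between hypoxic and normoxic control cells 0 of the 11 passed, with a median log2 fold change of 0.04 (all miRNAs 0.01).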

How the data were processed

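U87-MG miRNA-Seq libraries (5 groups of 3) were analysed from the counts of reads per mature miRNA that the authors deposited, without normalization. HISAT2, StringTie and DESeq2 are named in the submitters' processing notes, with no version or role, and the genome build is not given in the sources used here; the study's methods name quantile normalization with limma. The same replicate number was not stated to mean a shared culture, and nothing says that replicates are separate cultures, so p-values measure the spread between these libraries, which may be technical. No 2 replicates of a group agreed within sampling noise (lowest chi-square per degree of freedom 49.3).

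The main test was the quasi-likelihood test of edgeR 4.0.16 (R 4.3.3) with TMM factors, the filterByExpr filter, all 15 libraries in 1 fit and Benjamini-Hochberg adjustment over 562 miRNAs. Arm ratios, log2((5p counts + 1)/(3p counts + 1)), were tested with limma 3.58.1 over 142 hairpins. Single values were compared by two-sided exact permutation tests. DESeq2 1.42.0 was an alternative, with other scalings, filters, pseudocounts (10 for arm ratios), the libraries compared alone, a replicate block, the miR-126 sets and libraries left out in turn. The miR-126 sets are split at the largest gap in the summed log2 CPM of its arms. In simulated counts with log2 changes of 2 in 200 miRNAs, edgeR recovered 95.0% for HIF1α-KO against hypoxic control cells over 553 miRNAs. The fitted differences of the members were all smaller than this, so the recovery does not apply to changes of their size.

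Intervals and the 3-count minimum cover counting or fitted error only. The members and lists were chosen with earlier results of these data known. Text names the 4 members, the arms of miR-210, the 3 miRNAs most correlated with each member, and from each list those that passed and the 3 most abundant.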

Additional observations from a re-analysis of the deposited data

How the results depend on the processing

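Over 9 other settings, 383 of the 396 log2 fold changes of members kept their direction and their side of the threshold, 4 lost the call and 9 changed sign. The 4 lost calls are those of miR-222-3p between HIF1α/HIF2α-KO and normoxic control cells (-0.42 with library totals only, -0.37 with limma on quantile-normalized values, -0.46 without a filter and -0.50 with the miR-126 sets as a covariate). The values that changed sign were never called and had a size of at most 0.10. With library totals only these were miR-222-5p between HIF2α-KO and hypoxic control cells (-0.073) and between HIF1α/HIF2α-KO and HIF2α-KO cells (0.054), and miR-221-3p between HIF2α-KO and HIF1α-KO cells (-0.011). With limma on quantile-normalized values they were miR-221-5p between hypoxic and normoxic control cells (0.011) and between HIF1α/HIF2α-KO and HIF2α-KO cells (0.0084), and miR-221-3p between HIF1α-KO and normoxic control cells (-0.071). With at least 10 counts in every library miR-221-5p was at -0.0096 between HIF1α/HIF2α-KO and HIF1α-KO cells. With the miR-126 sets as a covariate, against normoxic control cells, miR-221-5p was at -0.10 in HIF1α-KO and miR-222-3p at 0.021 in HIF2α-KO cells, and the 5p over 3p ratio of miR-221 was at -0.18 in hypoxic control and -0.14 in HIF1α-KO cells. In the other 108 of 110 values of the arm ratios nothing changed. The cause was not tested.

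Leaving out each library in turn, 257 of 288 log2 fold changes of members and 127 of 144 arm ratios kept their direction and side, and the ranges that included a change were as follows. Between hypoxic and normoxic control cells miR-221-5p ranged from -0.21 to 0.073, miR-222-5p from -0.52 to 0.034, and the arm ratios from -0.16 to 0.17 (miR-221) and -0.070 to 0.41 (miR-222). From hypoxic control cells, miR-222-5p ranged from -0.44 to 0.018 in HIF1α-KO, -0.089 to 0.35 in HIF2α-KO and -0.21 to 0.23 in HIF1α/HIF2α-KO cells, the miR-221 arm ratio from -0.11 to 0.32 in HIF1α-KO and the miR-222 arm ratio from -0.039 to 0.34 in HIF1α/HIF2α-KO cells. From HIF1α-KO to HIF2α-KO cells, miR-221-5p ranged from -0.075 to 0.39, miR-222-3p from -0.014 to 0.26, and the arm ratios from -0.19 to 0.25 and -0.052 to 0.41. From HIF1α-KO to HIF1α/HIF2α-KO cells, miR-221-5p ranged from -0.25 to 0.18 and miR-222-5p from -0.025 to 0.39. From HIF2α-KO to HIF1α/HIF2α-KO cells, miR-221-3p ranged from -0.53 to -0.30 and miR-222-3p from -0.63 to -0.33. From normoxic control to HIF1α-KO cells, miR-221-3p ranged from -0.0063 to 0.037, miR-221-5p from -0.049 to 0.35 and the miR-221 arm ratio from -0.11 to 0.34. From normoxic control to HIF2α-KO cells, miR-222-3p ranged from -0.18 to 0.10, miR-222-5p from -0.32 to 0.10, and the arm ratios from -0.020 to 0.31 and -0.35 to 0.15. From normoxic control to HIF1α/HIF2α-KO cells, miR-221-3p ranged from -0.39 to -0.16, miR-221-5p from -0.015 to 0.26 and miR-222-3p from -0.61 to -0.41. The interaction ranged from -0.14 to 0.33 for miR-222-5p and from -0.084 to 0.36 for the miR-221 arm ratio. The log2 ratio of miR-222-3p to miR-221-3p, left out in turn after the data had been seen, ranged from -0.057 to 0.13 (HIF1α/HIF2α-KO against hypoxic control), -0.12 to 0.12 (HIF2α-KO against HIF1α-KO) and -0.20 to 0.044 (HIF1α/HIF2α-KO against HIF2α-KO), and that of the 5p strands from -0.36 to 0.036, -0.029 to 0.41 and -0.21 to 0.23 in the same order.

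Libraries with the same replicate number did not deviate together on average (mean correlations of deviations from -0.26 to 0.24 over the 10 comparisons). Single correlations ran from -0.62 to 0.55 between HIF1α-KO and hypoxic control cells, so these values cannot settle whether the numbers pair libraries. A replicate block gave -0.53 for miR-222-3p between HIF1α/HIF2α-KO and normoxic control cells (adjusted p = 0.0479 in edgeR) and changed no call of a member. Depth limits miR-222-5p most, at 58 to 229 counts. The overlap of libraries under library totals was looked at after the data had been seen, and took the separated member comparisons from 11 to 5 of 40. How it changed over all miRNAs was not determined.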
